A study of Mus musculus with 24 samples.

Results

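The genes described here encode the proteins of the mitochondrial ribosome that carry the symbols Mrpl (large subunit) and Mrps (small subunit). They were chosen by name alone: a protein-coding symbol that begins with Mrpl or Mrps followed by a digit, pseudogenes left out. The annotation holds 78 such symbols, and 77 of them matched a row among the 45319 gene rows of the count table; Mrpl33 matched none. Of the 77, 50 encode large-subunit proteins (29 with a bacterial homologue, 21 specific to mitochondria), 26 encode small-subunit proteins (16 and 10), and Mrps36 is now assigned outside the ribosome, to the alpha-ketoglutarate dehydrogenase complex. Mrps30 and Mrps18a are named for the small subunit and sit in the large one, and are counted there. Mrps18a and Mrps18b are related in sequence to bacterial S18, but ribosomal protein nomenclature treats them as mitochondrial proteins of their own, and they are counted as specific to mitochondria. After the filter on low counts 76 genes were tested. The gene that did not pass, Mrpl53, had no count in any of the 24 libraries, where 3 counts would have been 0.0605 to 0.0818 CPM, and 88.0% of its exon bases are shared on the same strand with another annotated gene, Gm42688. Reads from such bases can be discarded as ambiguous or given to the other gene, so the zeros limit the counts assigned to Mrpl53, not its expression.

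RNA came from Lys-GFP-ER-HoxA9 cells, mouse myeloid progenitors of the C57Bl/6 strain in which the transcription factor HoxA9 is fused to an oestrogen receptor and GFP reports on lysozyme. All were grown with Stem Cell Factor and 0.5 uM beta-estradiol, which keeps such a fusion active and the cells immature. Removal of estradiol starts differentiation, and 2 libraries were made at each of 0, 4, 8, 12, 24, 36, 48, 72, 96 and 120 h. One library each came from 12, 36, 72 and 120 h of treatment with R07, a code-named agent that the labels do not describe further; they attach 1 protocol to all libraries and do not state separately whether estradiol was present with R07. The cells are 1 engineered line, and the labels do not say whether replicate libraries came from separate cultures, so p-values measure the spread between these libraries, which may be technical. In RNA from a whole culture, fewer cells of a type and less RNA per cell cannot be told apart.

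Mitochondria translate a small set of mitochondrially encoded messages, which specify core subunits of the respiratory chain and the ATP synthase, on their own ribosomes. All proteins of that ribosome are made in the cytosol from nuclear genes and imported, whereas its ribosomal RNAs are transcribed inside the organelle. Mature neutrophils hold few mitochondria and rely largely on glycolysis, and promoters of nuclear genes for mitochondrial proteins often carry sites for NRF1, for GABP (an ETS-family factor) and for YY1.

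Sites of these kinds are shown for 4 genes that have a match in the stretch printed. Their transcripts ended the withdrawal course toward opposite ends of the range. Not all genes at those ends had such a match. Mrps6 and Mrps5, which fell more than Mrps27, matched none of these motifs. Mrpl14, which rose most, had an NRF1 match only past the start, at 4 bases. Mrpl12 and Mrps27 had among the largest falls at 120 h, while Mrpl45 and Mrps21 were among the few members called higher. Both higher calls were lost under some other ways of scaling the libraries, given below. RefSeq windows (GRCm38.p6) ran from 250 bases before to 50 bases after each start; the 250 bases before it are printed. The Mrpl12 stretch is chr11:120484387-120484636 on the plus strand, that of Mrps27 is chr13:99344536-99344785 on the plus strand, that of Mrpl45 is chr11:97315466-97315715 on the plus strand, and that of Mrps21 is chr3:95871515-95871764 on the minus strand. Each is written 5′ to 3′ on the gene's strand, and capitals mark matches to the NRF1 motif in Mrpl12, Mrpl45 and Mrps21 and to the YY1 and ETS motifs in Mrps27.
Mrpl12: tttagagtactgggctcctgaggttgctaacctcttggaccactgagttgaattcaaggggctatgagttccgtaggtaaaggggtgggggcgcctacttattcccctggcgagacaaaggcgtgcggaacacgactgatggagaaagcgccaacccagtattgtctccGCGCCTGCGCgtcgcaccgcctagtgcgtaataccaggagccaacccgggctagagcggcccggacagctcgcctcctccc
Mrps27: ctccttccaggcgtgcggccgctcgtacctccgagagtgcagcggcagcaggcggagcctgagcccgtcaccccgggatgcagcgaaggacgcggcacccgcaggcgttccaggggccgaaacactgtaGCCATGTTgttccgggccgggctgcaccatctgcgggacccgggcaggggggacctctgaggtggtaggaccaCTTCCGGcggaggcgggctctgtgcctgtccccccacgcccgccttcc
Mrpl45: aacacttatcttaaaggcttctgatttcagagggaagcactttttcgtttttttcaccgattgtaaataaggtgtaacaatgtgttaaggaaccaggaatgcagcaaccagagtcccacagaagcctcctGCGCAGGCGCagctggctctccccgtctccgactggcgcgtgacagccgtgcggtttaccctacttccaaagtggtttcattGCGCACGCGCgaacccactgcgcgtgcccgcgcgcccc
Mrps21: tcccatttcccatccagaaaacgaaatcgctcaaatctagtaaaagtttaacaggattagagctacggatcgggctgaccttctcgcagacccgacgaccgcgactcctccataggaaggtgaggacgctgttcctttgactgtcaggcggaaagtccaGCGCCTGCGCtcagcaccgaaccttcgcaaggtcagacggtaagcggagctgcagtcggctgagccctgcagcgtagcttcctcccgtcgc
The NRF1 match began 81 bases before the start in Mrpl12, 91 before it in Mrps21, and 120 and 38 before it in Mrpl45. In Mrps27 the YY1 match began 121 and the ETS match 48 bases before the start. Past the start, in the part of the windows not printed, a further YY1 match began at 14 bases in Mrps27, an NRF1 match at 15 in Mrpl45 and an ETS match at 18 in Mrps21.

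Promoter windows were found for 68 of the 77 genes (74 windows), and motifs were searched on both strands. The NRF1 motif, written as the half-sites GCGCA and GCGC with any base between them, was present in 13 of the 74 windows (17.6%), against 4.60% of all 32851 RefSeq promoter windows of the same length. The ETS motif CCGGAAG was found in 33.8% of the genes' windows and in 8.86% of all windows, and the YY1 motif AANATGGC in 28.4% and 6.05%. The GC box GGGCGG stood in 52.7% against 35.7%. For CCAAT the shares were 39.2% and 37.4%, and for the E-box CACGTG they were 9.46% and 7.15%. Median GC content was 58.8% in the genes' windows and 52.7% in all windows. The GC box and the NRF1 motif can overlap, and a match describes letters only.

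Each library held 36.7 to 49.6 M counts over all genes, and the mitochondrial ribosomal protein genes took 0.151 to 0.434% of them. The marker lists followed the labelled differentiation: 6 progenitor markers summed to 5299 and 5269 CPM (reads of a gene relative to library size, with TMM factors for composition) at 0 h and to 125 and 133 CPM at 120 h. The sum over 10 neutrophil markers went from 24.6 and 26.2 CPM at 0 h to 35930 and 28290 CPM at 96 h. Monocyte and macrophage markers rose to 6500 and 6208 CPM at 120 h from 761 and 811 CPM at 0 h. Eosinophil markers were at 34.0 and 35.4 CPM at 0 h and at 1824 and 2029 CPM at 72 h. Mast cell and basophil markers went from 320 and 355 CPM at 0 h to 47.7 and 45.8 CPM at 120 h and stood between 422 and 1300 CPM in R07. B cell markers went from 179 and 169 CPM at 0 h to 83.4 and 89.4 CPM at 120 h, and megakaryocyte markers from 14.7 and 14.2 to 30.9 and 34.2 CPM. T cell and erythroid markers stayed at or below 2.73 CPM at 0, 72, 96 and 120 h and in R07. The part that these shifts in cell make-up have in the changes below was not tested.

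After estradiol withdrawal the transcripts of the mitochondrial ribosomal proteins held near their starting level for 36 h and then declined through 96 h. Their summed level was 3778 and 4058 CPM in the 2 libraries at 0 h, 4098 and 4316 at 24 h, 3500 and 3343 at 48 h, 2523 and 2948 at 72 h, 1947 and 1903 at 96 h, and 2015 and 2180 at 120 h. Both libraries at each of 4, 8, 48, 72, 96 and 120 h lay below both at 0 h. At 4 and 8 h this also held as a plain share of gene counts. That share was 0.404 and 0.430% at 0 h, 0.388 and 0.378% at 4 h, and 0.390 and 0.397% at 8 h. The median gene had a log2 change against 0 h of 0.08 at 24 h, 0.08 at 36 h, -0.17 at 48 h, -0.47 at 72 h, -1.01 at 96 h and -0.98 at 120 h, while the median of all 14615 genes tested was -0.06 at 120 h. At 120 h 37 of the 76 genes (48.7%) were lower by more than 2-fold, as were 28.1% of all genes tested. The scale matters for size: with library size alone, without a factor for composition, the median of all genes moved to -0.50 and that of the members to -1.43, and with upper-quartile scaling to -0.25 and -1.18.

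**Figure D1:**
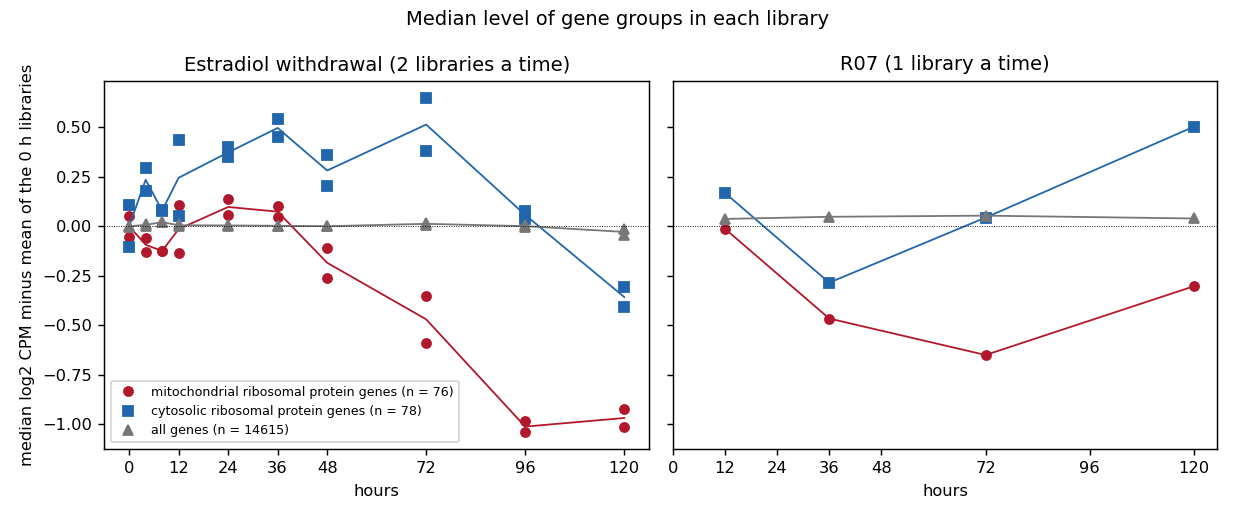
Median log2 CPM minus the mean of the 0 h libraries (vertical axis, log2 units) against hours, for 76 mitochondrial ribosomal protein genes, 78 cytosolic ribosomal protein genes and all 14615 genes; each point is 1 library and lines join the means of 2 withdrawal libraries (left) or single R07 libraries (right). The mitochondrial set reaches -0.98 and -1.04 in the 96 h libraries, and in R07 its lowest point is -0.65 at 72 h.

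Few of the genes passed the test in the first 12 h. Against 0 h, edgeR's quasi-likelihood test (Benjamini-Hochberg adjustment over all genes) called 0 higher and 2 lower at 4 h, where 11.7% of all genes tested were called (7.22% higher, 4.53% lower). The 2 were Mrpl16 and Mrps25; 69.8% of the exon bases of Mrps25 face Nr2c2 on the other strand. At 8 h the counts were 1 higher and 3 lower (21.9% of all genes, 12.9% higher and 8.99% lower), and they turned to 2 higher and 0 lower with library size alone. At 12 h they were 0 and 2 (16.0% of all genes, 9.20% higher and 6.81% lower). Leaving out single libraries at 0, 4, 8 or 12 h moved these counts between 0 and 8.

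At 24 h 9 genes were higher and 0 lower, at a time when 27.9% of all genes were called (13.5% higher, 14.4% lower). Those called were Mrpl10, Mrpl16, Mrpl17, Mrpl19, Mrpl41, Mrpl45, Mrps14, Mrps18c and Mrps33, and the median log2 change over all 76 was 0.08. The largest were Mrps18c (0.54 ± 0.20, adjusted p = 0.0455), Mrps33 (0.44 ± 0.13, 0.0128) and Mrpl16 (0.44 ± 0.11, 0.00532); values after ± on changes are standard errors. Mrpl16, a large-subunit protein with a bacterial homologue, stood at 73.8 and 80.3 CPM at 0 h, 103 and 106 at 24 h and 29.6 and 32.5 CPM at 120 h. Its 24 h libraries were the highest of all 24, and its 120 h libraries lay below both at 0 h. Of the 76 genes, 28 had their highest mean of the course at 24 h and 21 at 36 h. The matching shares over all genes were not determined. The count at 24 h was 2 higher and 2 lower with library size alone, and it fell to 1, 4 and 2 without 0 h A, 24 h A and 24 h B.

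The decline was a sequence of steps. Compared with 36 h, 15 genes were lower and 0 higher at 48 h (12.7% of all genes called between those times, 7.73% higher and 5.01% lower). From 48 to 72 h 43 were lower and 0 higher (44.0% of all genes, 21.8% lower), and from 72 to 96 h 66 were lower and 0 higher (53.7% of all genes, 26.5% lower). Against 0 h, 7 were higher and 5 lower at 36 h (40.9% of all genes called, 20.6% higher and 20.3% lower), with 6 and 7 under RLE scaling. At 48 h 6 were higher and 28 lower (52.6%, 25.8% higher and 26.8% lower), and at 72 h 2 were higher and 49 lower (69.6%, 34.9% higher and 34.7% lower). At 96 h 69 of 76 were lower and 0 higher, where 77.4% of all genes were called and 38.6% were lower. At 120 h 62 were lower and 4 higher, where 79.9% of all genes were called, 40.3% lower and 39.6% higher. By single libraries, the 48 h step held 1 to 4 calls, and the 72 h step 27 when 48 h library A was left out and 22 when 72 h library A was.

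**Figure D2:**
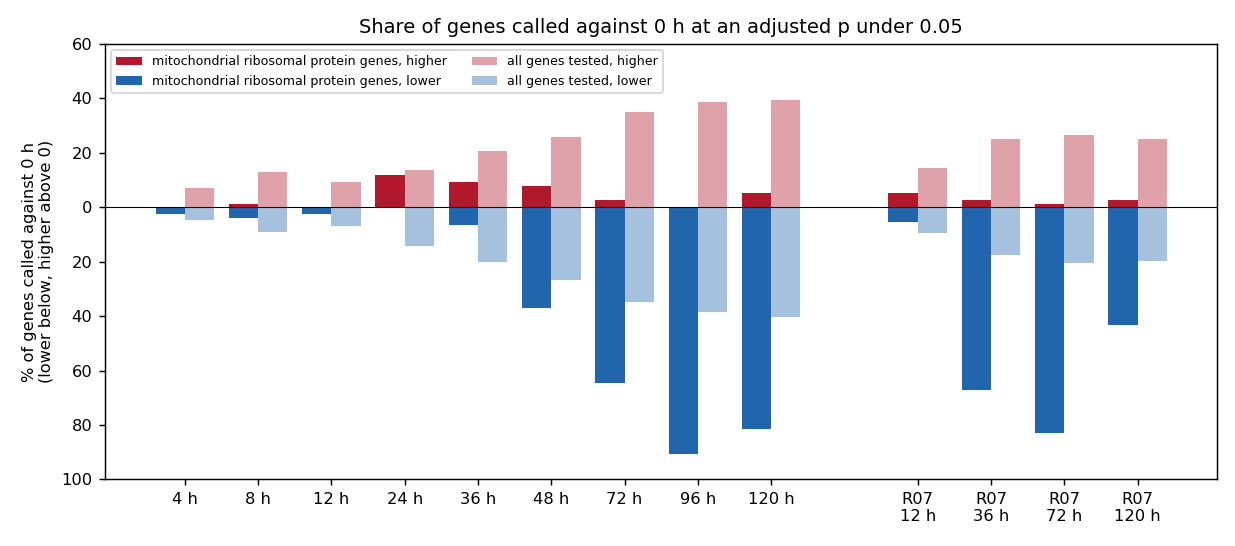
Percent of genes called higher (above 0) or lower (below 0) than 0 h at an adjusted p under 0.05, by hours of withdrawal and for the single R07 libraries; dark bars are the 76 mitochondrial ribosomal protein genes and pale bars all genes tested. At 96 h the dark bar covers 69 genes, all lower, beside 38.6% of all genes called lower and 38.7% called higher.

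Over the whole course an F test on time called 75 of the 76 genes, a share close to the 91.1% of all genes. The exception was Mrpl14 (adjusted p = 0.0760). The lowest mean of the course fell at 96 h for 56 genes and at 120 h for 14. These counts were not made over all genes, so the timing is not shown to be particular to the members.

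Proteins of the stalk, the arm of the large subunit that recruits translation factors, are given first. Mrpl12, the stalk protein itself (ENSMUSG00000039640.7, chr11:120484613-120489065, plus strand), had the highest level per length at 0 h, 98.7 CPM per kb of exon, ahead of Mrpl18 at 75.6 and Mrpl44 at 60.2, with Mrpl23 lowest at 1.84. It was at 149 and 153 CPM at 0 h, 140 and 136 at 24 h, 98.7 and 84.6 at 48 h, 42.4 and 58.4 at 72 h, 22.6 and 26.2 at 96 h, and 23.0 and 31.3 at 120 h. Every withdrawal library from 48 h on lay below every earlier one. The log2 change at 120 h was -2.50 ± 0.16 (adjusted p = 1.36e-11), a 5.66-fold lower level and the largest fall of the 76. Of the 2 proteins at the base of the stalk, Mrpl11 fell by 1.18 ± 0.14 at 120 h (adjusted p = 1.04e-07). Mrpl10 was 63.8 and 58.5 CPM at 0 h and 56.7 and 56.3 CPM at 120 h, a change of -0.13 ± 0.09 that was not called (adjusted p = 0.165).

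The next 5 genes by size of change at 120 h belonged to the small subunit, while of all 37 genes lower by more than 2-fold 22 were of the large and 14 of the small subunit. Mrps6, a protein with a bacterial homologue, went from 16.4 and 17.7 CPM at 0 h to 2.79 and 2.59 at 96 h and 2.49 and 3.79 at 120 h (log2 -2.48 ± 0.18, adjusted p = 6.47e-11). Its 96 and 120 h libraries were the 4 lowest of all 24. Exons of Mrps6 overlap Slc5a3 on the same strand over part of their length (30.3% of exon bases, Gm49711 included), so its counts may have been divided. Mrps27, a small-subunit protein with RNA-binding repeats that is specific to mitochondria (chr13:99344786-99415562, plus strand), was at 62.5 and 58.0 CPM at 0 h, 21.5 and 25.5 at 72 h, 12.2 and 13.1 at 96 h, and 13.7 and 16.6 at 120 h. That was a change of -2.01 ± 0.11 (adjusted p = 7.71e-13); 24.2% of its exon bases face an antisense transcript, 6430562O15Rik. Mrps5, a homologue of a bacterial protein that affects the accuracy of decoding, was at 69.4 and 68.5 CPM at 0 h and 16.0 and 17.3 CPM at 120 h (-2.07 ± 0.11, adjusted p = 2.07e-13). Mrps28 fell by 2.00 ± 0.18 (adjusted p = 2.54e-09) and Mrps22, a protein found only in mitochondrial ribosomes, by 1.96 ± 0.15 (adjusted p = 1.76e-10). Mrps28 lay lower at 96 h, at 4.59 and 4.74 CPM, than at 120 h, at 6.23 and 9.38 CPM (120 against 96 h 0.73 ± 0.20, adjusted p = 0.00645).

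**Figure D3:**
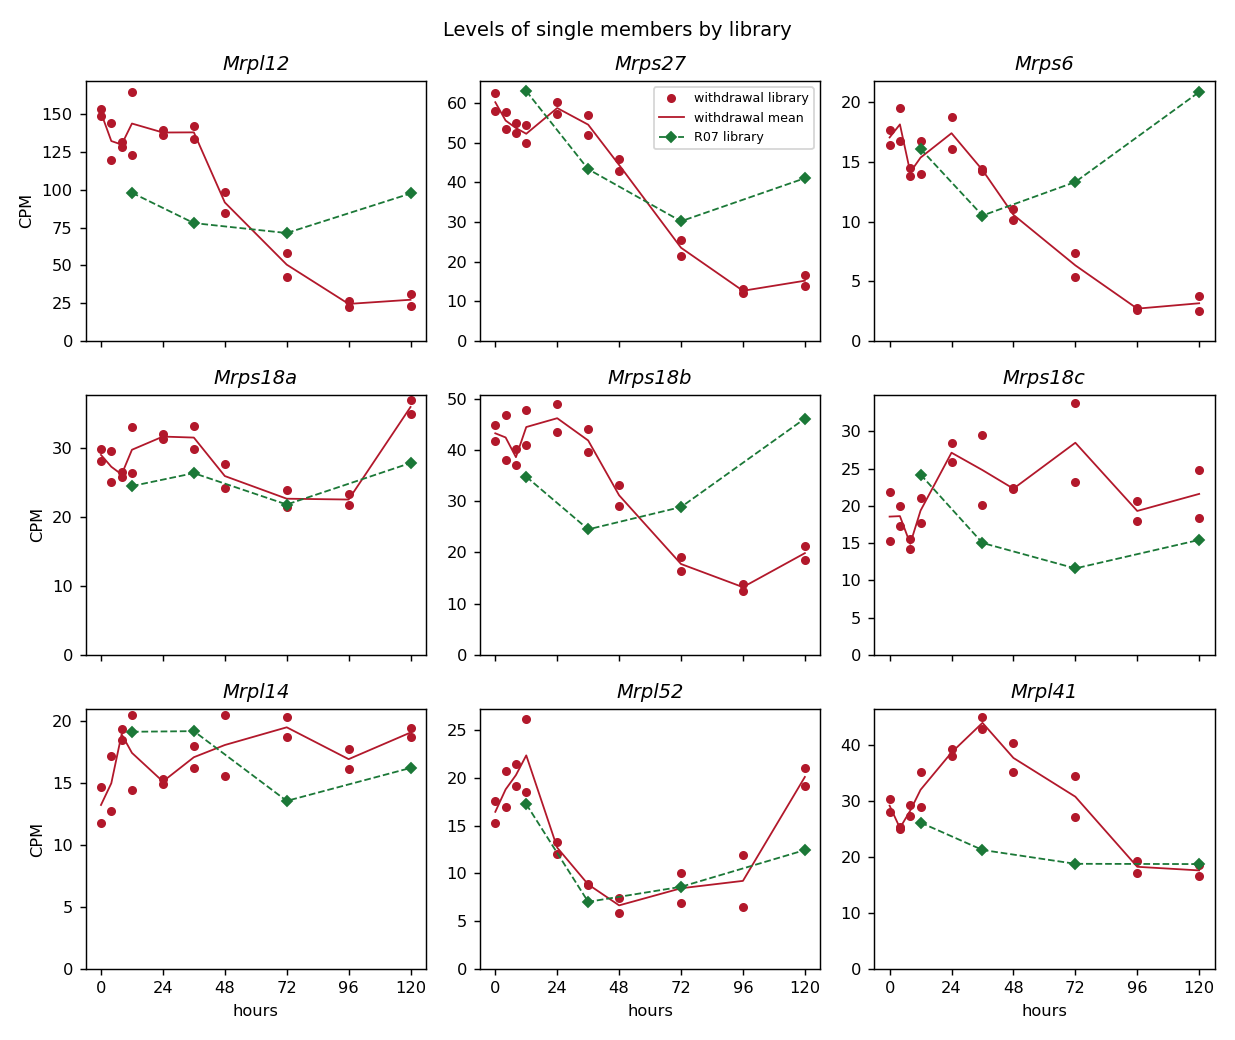
CPM (vertical axis, from 0) against hours for 9 genes; red points are withdrawal libraries, red lines their means and green diamonds single R07 libraries. Mrpl12, Mrps27 and Mrps6 fall from 48 h of withdrawal on and lie higher in R07 at 120 h, whereas Mrpl14, Mrps18c and Mrpl52 follow other courses.

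Further genes named for a known role were each called lower at 120 h. Mrpl3, a large-subunit protein near the site of peptide bond formation, fell by 1.35 ± 0.10 (adjusted p = 9.94e-11), from 108 and 122 CPM to 44.4 and 47.2 CPM. Mrps12, which lines the decoding centre, fell by 0.89 ± 0.14 (adjusted p = 9.02e-06). Mrps7, of the small-subunit head, fell by 1.10 ± 0.10 (adjusted p = 4.22e-09), and Mrpl36 by 0.78 ± 0.10 (adjusted p = 5.70e-07). Mrpl44, with a fold related to RNase III, fell by 1.20 ± 0.08 (adjusted p = 3.06e-11). Mrpl58, a peptidyl-tRNA hydrolase built into the large subunit that releases stalled peptides, fell by 0.73 ± 0.12 (adjusted p = 2.10e-05). For the mitochondria-specific Mrpl37 and Mrps30 the falls were 1.22 ± 0.10 (adjusted p = 6.83e-10) and 1.01 ± 0.11 (adjusted p = 6.04e-08). Mrps36, whose protein belongs to a dehydrogenase complex, fell with them, by 1.31 ± 0.17 (adjusted p = 3.90e-07).

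Most genes of both subunits were lower at the end of the course. Of all genes tested, 38.6% were lower and 38.7% higher at 96 h, and 40.3% were lower and 39.6% higher at 120 h. At 96 h 44 of 49 large-subunit genes tested were lower with a median log2 change of -0.999, and 24 of 26 small-subunit genes with a median of -1.26; 0 of either were higher. At 120 h 38 of 49 large-subunit genes were lower and 3 higher (median -0.85), and 23 of 26 small-subunit genes were lower and 1 higher (median -1.12). By origin, all 10 small-subunit genes specific to mitochondria were lower at 96 h (median -1.42), as were 14 of 16 small-subunit genes with a bacterial homologue (-0.82). In the large subunit the medians at 96 h were -1.06 for bacterial homologues (26 of 29 lower) and -0.95 for the mitochondria-specific genes (18 of 20 lower). With Mrps18a and Mrps18b moved to the bacterial homologues, a choice made after the values were seen, all 9 remaining small-subunit genes specific to mitochondria were lower at 96 h (median -1.41), and the small-subunit homologues had a median of -0.91. The difference between these classes was not tested.

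**Figure D4:**
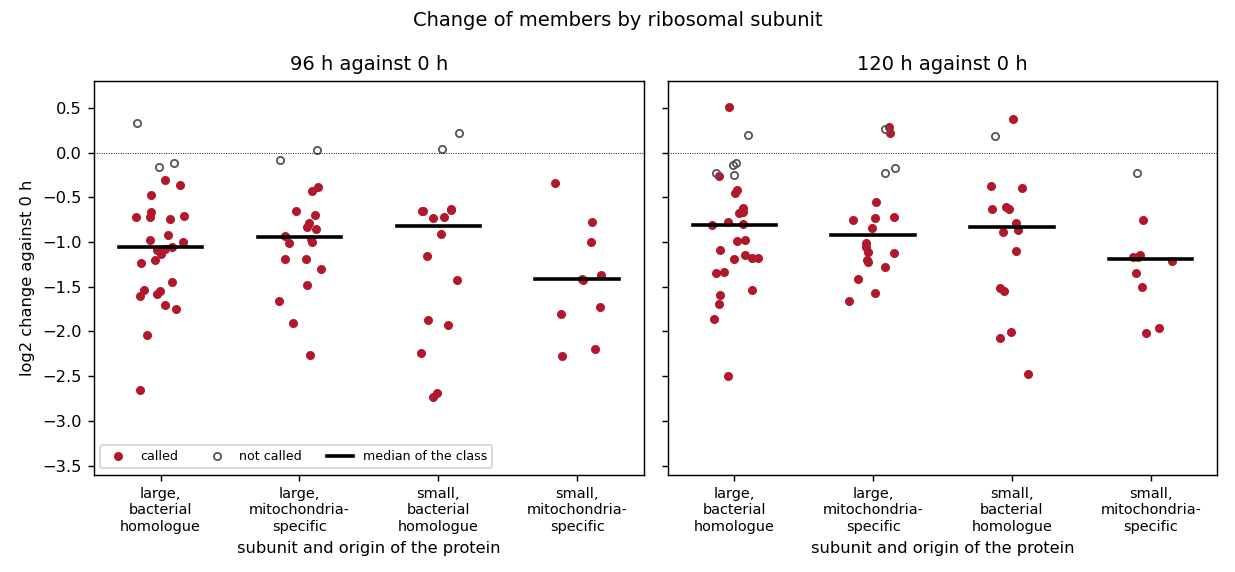
Log2 change against 0 h at 96 h (left) and 120 h (right) for each gene, grouped by subunit and origin; filled points were called, open points were not, and bars are class medians. The small-subunit genes specific to mitochondria have the lowest median, -1.42 at 96 h and -1.19 at 120 h, within a spread that overlaps the other 3 classes.

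Of the 3 proteins related to bacterial ribosomal protein S18, 1 was called lower, 1 higher and 1 neither at 120 h with TMM scaling. Mrps18b, a small-subunit protein, was at 44.8 and 41.7 CPM at 0 h, 13.9 and 12.5 at 96 h and 18.5 and 21.2 CPM at 120 h; it fell by 1.15 ± 0.13 at 120 h (adjusted p = 4.47e-08), and 30.5% of its exon bases face the antisense gene Gm16279. Mrps18a, the paralogue in the large subunit, was at 29.8 and 28.1 CPM at 0 h, 23.2 and 21.7 at 96 h and 34.9 and 36.8 CPM at 120 h. Its 96 h libraries lay below and its 120 h libraries above both at 0 h, with changes of -0.38 ± 0.12 (adjusted p = 0.00539) and 0.29 ± 0.11 (adjusted p = 0.0259). The third, Mrps18c, ranged from 15.3 and 21.9 CPM at 0 h to 23.2 and 33.8 CPM at 72 h and 18.4 and 24.8 CPM at 120 h, where its change of 0.19 ± 0.20 was not called (adjusted p = 0.384). At 24 and 72 h Mrps18c was called higher; it shares 23.2% of its exon bases with Gm43511 on the same strand.

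Higher levels at 120 h were called for 4 genes, the largest by 1.42-fold, and these calls depended on the scaling. Mrpl14, at the interface of the subunits, stood at 11.8 and 14.7 CPM at 0 h and 19.4 and 18.7 CPM at 120 h (0.51 ± 0.17, adjusted p = 0.00913). Mrps21 stood at 24.8 and 29.3 CPM at 0 h and 36.4 and 34.8 CPM at 120 h (0.38 ± 0.13, adjusted p = 0.0131). Mrpl45, which lies at the peptide exit where the ribosome meets the inner membrane, stood at 49.4 and 49.4 CPM at 0 h and 55.6 and 60.6 CPM at 120 h (0.21 ± 0.08, adjusted p = 0.0248). In each of these, as in Mrps18a, both 120 h libraries lay above both 0 h libraries. With library size alone the changes became 0.06 for Mrpl14, -0.07 for Mrps21, -0.23 for Mrpl45 and -0.16 for Mrps18a, and with upper-quartile scaling 0 of the 4 were called. Single libraries also ended the calls: 0 h A for Mrpl14, Mrps21 and Mrpl45, 0 h B for Mrpl45 and Mrps18a, 120 h A for Mrps21, and 120 h B for Mrpl45 and Mrps18a.

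Windows with the NRF1 motif were found for 3 of these 4 genes (Mrpl14, Mrpl45 and Mrps21), and also for Mrpl12. Among the 13 genes with the motif, 3 were higher and 9 lower at 120 h with a median of -0.72. Among 54 tested genes with a window and no match, 1 was higher and 45 lower, with a median of -0.94. Of all genes tested 39.6% were higher and 40.3% lower. The 4 higher calls were lost with library size alone and with upper-quartile scaling. For the YY1 motif the medians were -1.01 in 21 genes with it and -0.83 in 46 without. For the ETS motif they were -0.73 in 24 and -0.99 in 43. These medians were not tested against each other.

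From 96 to 120 h the order of the summed levels depended on the scaling. With TMM both 120 h libraries lay above both at 96 h. As a plain share of gene counts the genes took 0.1537 and 0.1625% at 96 h and 0.151 and 0.1725% at 120 h, and the libraries overlapped. Between these times 21 genes were higher and 3 lower, where 43.2% of all genes were called (21.8% higher). The split was 10 higher and 6 lower with library size alone and 14 and 6 with upper-quartile scaling, and 10 and 9 genes in all were called without 96 h library B and 120 h library B. Mrpl52, a mitochondria-specific large-subunit protein singled out after its values were seen, had the largest step. It went from 15.3 and 17.6 CPM at 0 h to 7.45 and 5.83 CPM at 48 h and 11.9 and 6.50 CPM at 96 h, and back to 19.2 and 21.0 CPM at 120 h (120 against 96 h 1.12 ± 0.22, adjusted p = 0.000336). Its 120 h libraries lay above both at 0 h, and that difference of 0.27 ± 0.21 was not called (adjusted p = 0.253). Mrpl18, Mrpl19 and Mrpl51 were lower at 120 than at 96 h. Mrpl19, also singled out after its values were seen, had a late peak. It was at 76.2 and 79.0 CPM at 0 h, 112 and 115 at 36 h, 109 and 113 at 48 h and 34.5 and 36.7 at 120 h. Of its exon bases 36.0% face Gcfc2.

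Mitoribosomal proteins with other names went the same way in 4 of 5 cases. At 120 h Ptcd3 (-2.58 ± 0.12), Gadd45gip1 (-1.97 ± 0.14), Dap3 (-1.51 ± 0.09) and Chchd1 (-1.20 ± 0.16) were lower, with adjusted p of 7.66e-07 or less. Aurkaip1 was higher by 0.52 ± 0.11 (adjusted p = 0.000321). Of 24 genes for assembly of the mitochondrial ribosome and modification of its RNA, 15 were lower and 2 higher at 120 h (median -0.59). Of all genes tested 40.3% were lower and 39.6% higher. Among the 24 were Noa1, a GTPase of small-subunit assembly, at -2.10 ± 0.09 and the helicase gene Ddx28 at 1.14 ± 0.12.

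Genes for the factors that work with the ribosome were also mostly lower at 120 h, where 40.3% of all genes tested were lower and 39.6% higher. Of 15 mitochondrial translation factor genes 14 were lower and 0 higher at 120 h (median -1.03), among them the elongation factors Tufm (-2.04 ± 0.10), Tsfm (-1.86 ± 0.11) and Gfm1 (-1.83 ± 0.09). Of 17 mitochondrial aminoacyl-tRNA synthetase genes 15 were lower and 2 higher (median -1.66); the higher ones were Lars2 (1.31 ± 0.30, adjusted p = 0.000444) and Fars2 (0.40 ± 0.10, adjusted p = 0.000926). Genes for transcription and replication of mitochondrial DNA were lower in 9 and higher in 1 of 13, with Tfam at -0.95 ± 0.11, the helicase Twnk at -2.32 ± 0.10 and the polymerase Polg at 0.50 ± 0.11.

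The mitochondrially encoded messages, which the ribosome translates, were mostly higher at 24 h. At that time 9 of the 12 tested were called higher and 0 lower (median 0.76, against 0.08 for the ribosomal proteins). At 120 h 3 were higher and 0 lower (median 0.08), where mt-Co1 was at 0.85 ± 0.15 (adjusted p = 4.07e-05). Of all genes tested 13.5% were higher at 24 h and 39.6% at 120 h. The difference between the messages and the ribosomal proteins was not tested. The library kit selects RNA by its poly(A) tail, so these values count polyadenylated mitochondrial transcripts.

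Cytosolic ribosomal protein genes were called higher more often than lower from 24 to 72 h and lower more often at 120 h. Of 78, 49 were higher and 0 lower at 24 h, and 65 higher and 1 lower at 72 h (median 0.49). At 96 h 12 were higher and 11 lower, and at 120 h 3 were higher and 48 lower (median -0.39). Of all genes tested 13.5% were higher at 24 h, 34.9% at 72 h and 38.7% at 96 h, and 40.3% were lower at 120 h. At 72 h the mitochondrial median was -0.47. The difference between the lists was not tested. The 14 proliferation genes had a median of -0.07 at 72 h (3 higher, 3 lower), -0.78 at 96 h (12 lower) and -3.67 at 120 h (14 lower); over the last step, the mitochondrial ribosomal protein median went from -1.01 to -0.98.

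Regulators known to act on nuclear genes for mitochondrial proteins moved unevenly. At 120 h Myc was lower (-4.26 ± 0.12, adjusted p = 4.50e-17), and the coactivators Ppargc1b (-2.99 ± 0.25) and Pprc1 (-1.67 ± 0.11) were lower. The GABP subunit genes Gabpa (-0.54 ± 0.12), Gabpb1 (-0.62 ± 0.09) and Gabpb2 (-0.29 ± 0.09) were lower, and Esrra was higher (0.54 ± 0.13). Nrf1 (-0.19 ± 0.09, adjusted p = 0.0552) and Yy1 (-0.13 ± 0.11, adjusted p = 0.307) were not called.

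In cells treated with R07, with 1 library at each time and so no replicate check, the summed level of the mitochondrial ribosomal protein genes was 3846 CPM at 12 h, 2843 at 36 h, 2566 at 72 h and 3256 at 120 h. It lay between the withdrawal libraries at 12 h (3560 and 4119) and 72 h (2523 and 2948), below both at 36 h (4129 and 4021) and above both at 120 h (2015 and 2180). Of the 76 genes 52 (68.4%) had their lowest R07 value at 72 h, against 18.4% of all 15371 genes, and 74 (97.4%) were higher at 120 h than at 72 h, against 48.6% of all genes. Neutrophil markers summed to at most 196 CPM and progenitor markers to 5708 CPM or more in these 4 libraries.

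The comparison of the R07 arm with withdrawal at the same 4 times called 0 of the 76 genes, where 16.6% of 13641 genes were called (10.5% higher, 6.09% lower); 4 passed an unadjusted p of 0.05, and DESeq2 called 2. The comparison of the arm with 0 h called 0 members and 0% of 13704 genes; 13 members passed an unadjusted p of 0.05, DESeq2 called 1, and without the 12 h R07 library 13 were called, all lower. Both fits count differences between the R07 times as spread. A linear change of the R07 minus withdrawal difference over 12 to 120 h was called higher for 32 genes and lower for 2, where 50.4% of all genes were called (26.5% higher). The median change was 0.79 on the log2 scale, and without the 120 h R07 library it was -0.11 with 9 genes called, 8 of them lower. Calls numbered 56 when the 12 h R07 library was dropped and 17 when 120 h library A was.

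Single R07 libraries were compared in a fit of all 24 libraries, which assumes that a lone library varies like the replicated ones. Against 0 h, 4 genes were higher and 4 lower at 12 h (23.8% of 15371 genes called), 2 and 51 at 36 h (42.5%), 1 and 63 at 72 h (46.8%) and 2 and 33 at 120 h (44.7%); at 12 h the split was 5 and 2 with library size alone, and at 120 h 22 were called without 0 h library B. Against withdrawal at the same hour, 2 were higher and 2 lower at 12 h (25.1%), with 3 and 0 by library size alone. At 36 h 0 were higher and 52 lower (47.1% of all genes, median -0.47). At 72 h 13 were higher and 24 lower (53.4%, median -0.12), with 18 and 11 by library size alone, where the median was 0.07. At 120 h 51 were higher and 6 lower (72.4%, 37.6% higher, median 0.61), with 67 and 0 by library size alone. Between the single R07 libraries at 36 and 120 h, the median difference from withdrawal went from -0.47 to 0.61. These comparisons share the withdrawal libraries with those above.

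Among the 76, Mrps6 and Mrpl12 had the highest R07 minus withdrawal values at 120 h; that arm is 1 library, and the errors and p-values take their spread from the replicated times. Mrps6 was at 16.1, 10.5, 13.3 and 20.9 CPM at 12, 36, 72 and 120 h of R07, the last above every withdrawal library, and differed from withdrawal at 120 h by 2.75 ± 0.20 (adjusted p = 7.79e-11). Mrpl12 was at 98.1 CPM in R07 at 12 h, below every withdrawal library through 36 h, at 78.0 and 71.4 CPM at 36 and 72 h, and at 97.6 CPM at 120 h. Its difference from withdrawal was -0.55 ± 0.19 at 12 h (adjusted p = 0.0386), -0.82 ± 0.19 at 36 h (adjusted p = 0.00152) and 1.85 ± 0.19 at 120 h (adjusted p = 1.27e-08). With library size alone or upper-quartile scaling 0 of the 76 genes were called lower in R07 than in withdrawal at 12 h, so the Mrpl12 call there was lost. Further genes were singled out after their values were seen. Mrps31 was at 38.0, 27.0, 40.4 and 45.8 CPM over the 4 R07 times, the last above every withdrawal library, and differed from withdrawal at 120 h by 1.61 ± 0.14 (adjusted p = 1.13e-09). Mrps25, the gene lowest against 0 h in R07 at 120 h and the one with the antisense overlap with Nr2c2, was at 34.4, 25.4, 13.3 and 14.4 CPM over the 4 R07 times (120 h against 0 h -1.19 ± 0.14, adjusted p = 1.32e-06). Mrpl24, with 26.3% of its exon bases facing Rrnad1, was at 83.4 and 113 CPM in R07 at 72 and 120 h, and its highest withdrawal library, 1 of the 2 at 36 h, at 74.99 CPM.

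Of all genes tested 34.7% were called lower in R07 than in withdrawal at 120 h. The 6 members called lower there depended on the scaling: RLE scaling called 8 lower, upper-quartile scaling 2 and library size alone 0. They include 3 of the 4 genes called higher at 120 h of withdrawal, a comparison that shares the 120 h withdrawal libraries. Mrps21 differed by -0.76 ± 0.17 (adjusted p = 0.000398), Mrpl45 by -0.51 ± 0.11 (adjusted p = 0.000244) and Mrps18a by -0.37 ± 0.14 (adjusted p = 0.0273); with library size alone the 3 differences were -0.23, 0.02 and 0.16. Mrpl14 differed by -0.23 ± 0.20 and was not called (adjusted p = 0.307). The other 3 genes lower in R07 were Mrpl52 (-0.69 ± 0.27, adjusted p = 0.0258), Mrps24 and Mrpl4. Translation factor genes were higher than in withdrawal at 120 h in 13 of 15 cases (median 0.68) and cytosolic ribosomal protein genes in 71 of 78 (median 0.86). Of 12 mitochondrially encoded messages 0 were higher and 1 was lower (median 0.04). The share of all genes called higher in this comparison was 37.6%.

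**Figure D5:**
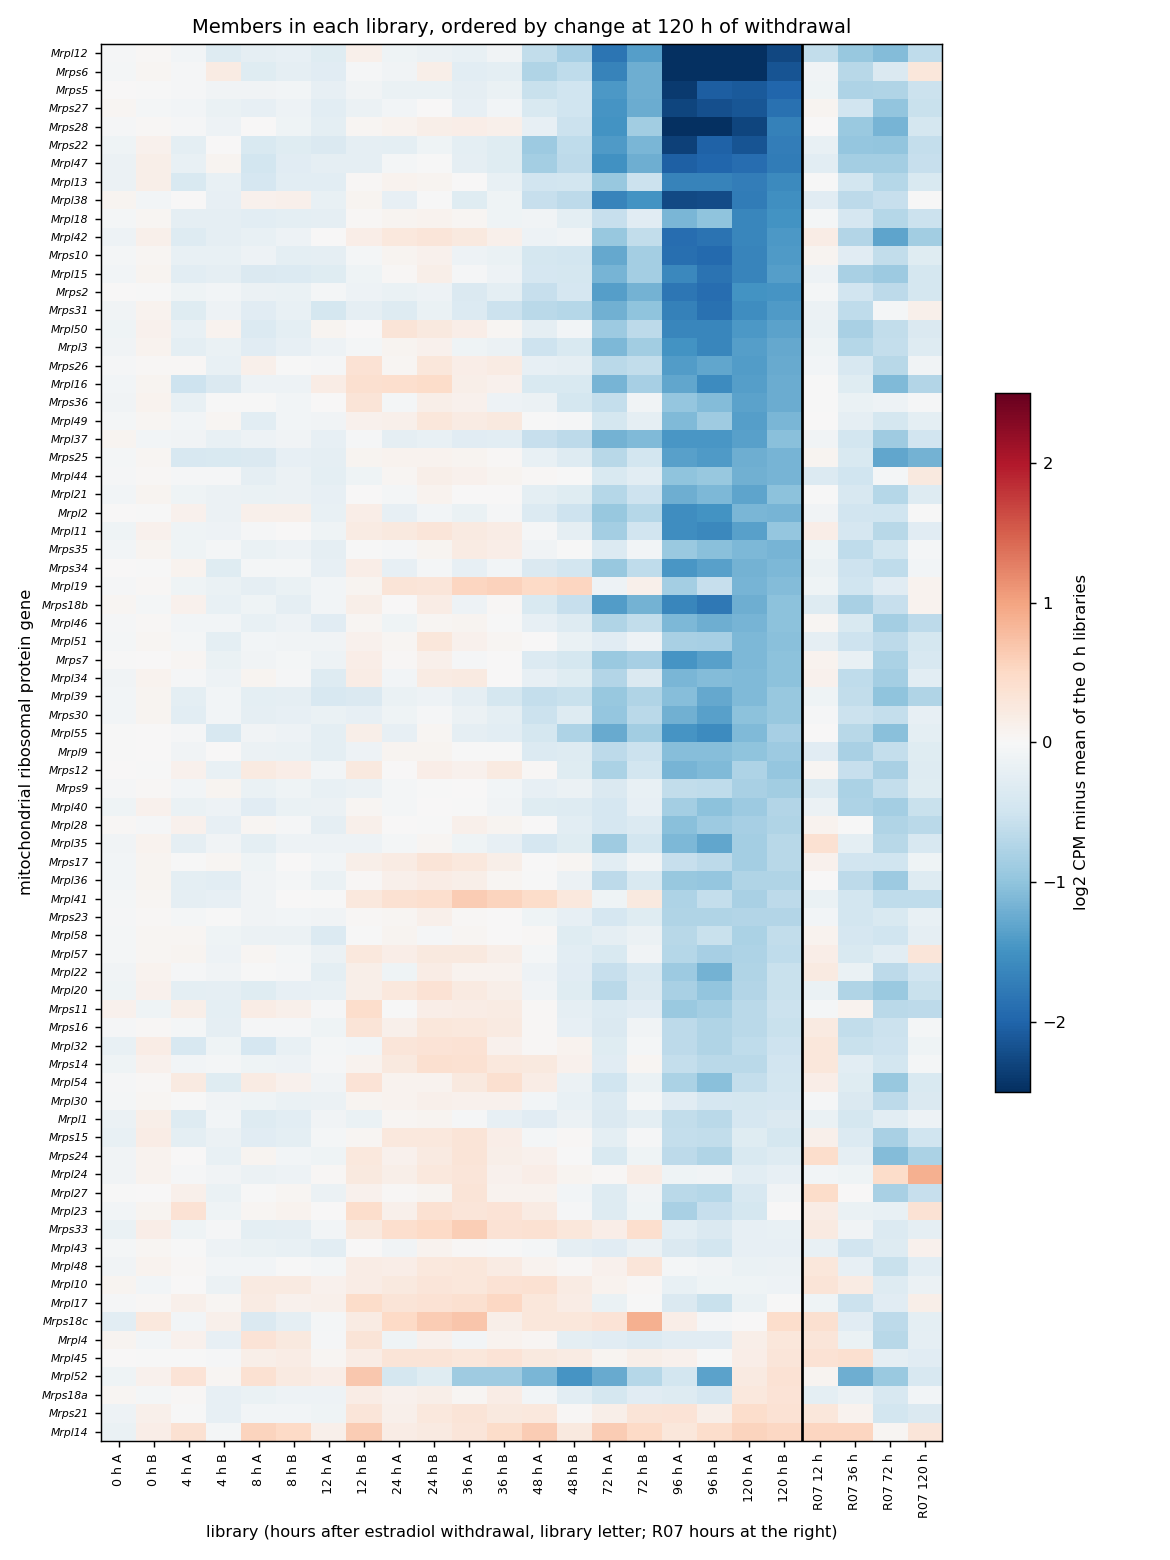
Log2 CPM minus the mean of the 0 h libraries (colour, from -2.5 to 2.5) for 76 genes (rows, ordered by change at 120 h of withdrawal) in 24 libraries (columns; R07 to the right of the black line). Blue deepens in most rows from 72 h to 96 h of withdrawal, and the 36 and 72 h R07 columns are pale blue in most rows.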

How the data were processed

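The authors deposited 1 table of raw counts per gene for all 24 libraries, made with STAR 2.4.2a, Picard and the mm10 build, per the submitters' processing notes. The counting program, its strand setting and the annotation release are not given in the sources used here. The kit was stranded and selected poly(A) RNA, per the labels' protocols. Lines of the table that name no gene held reads outside annotated genes (3.88 to 6.48% per library), multimapping (6.23 to 8.72%), ambiguous (1.08 to 1.25%) and unmapped reads (1.53 to 2.29%), and entered neither library sizes nor tests. Gene symbols with their positions came from GENCODE M21 (GRCm38) by Ensembl identifier, promoters from RefSeq (GRCm38.p6).

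Counts were scaled by TMM, filtered with filterByExpr and put through quasi-likelihood tests of edgeR 4.0.16 (R 4.3.3, limma 3.58.1), with Benjamini-Hochberg adjustment over all genes tested and a threshold of 0.05. One model with a level for each time held the 20 withdrawal libraries (14615 genes). R07 was fitted with the 8 withdrawal libraries of the same times, with time and arm terms (13641 genes), and with the 2 at 0 h (13704 genes). Steps between neighbouring times, single R07 libraries (15371 genes) and the slope of the R07 difference were added after seeing the data. Levels are CPM with TMM-scaled library sizes; log2 CPM uses a prior count of 2. The tests were checked on simulated counts.

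Genes were named if fixed for their role or if without counts. They were also named if among the 5 highest or lowest called changes at 24 h, at 120 h or in an R07 arm comparison. So were genes called against the main direction at 120 h. Members outside this rule are said to be chosen after their values were seen, are listed as the members of a count, or are the extremes of a ranking. Genes that are no members were named from the other gene lists, with no further rule. The members, the other gene lists and the motifs were chosen with earlier results of these data known. Column letters A and B are not tied to replicate numbers in the labels. Replicates had a log2 correlation of at least 0.993 and spread 5.84 to 45.8 times more than counting error. Alternatives were other scalings, no filter, DESeq2 1.42.0, other sets of libraries, a block on the column letter and leaving out each library.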

Additional observations from a re-analysis of the deposited data

Results flagged for a closer look

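An arm-by-time term over 12 to 120 h in edgeR, a test of whether the change with time differed between R07 and withdrawal, called 34 of the 76 genes (44.7%), 32 with R07 gaining on withdrawal and 2 with R07 losing. Of all 13641 genes 50.4% were called by the same term, a larger share than of the mitochondrial ribosomal protein genes. Mrps6 (2.95 ± 0.53 on the log2 scale over the interval, adjusted p = 0.00193), Mrpl12 (2.63 ± 0.43, 0.00126) and Mrpl38 (2.15 ± 0.36, 0.00139) had the highest values, and Mrps21 (-0.94 ± 0.28, 0.0207) and Mrpl45 (-0.80 ± 0.19, 0.00782) the lowest. The result rests on single R07 libraries: without the one at 120 h the median over the 76 genes was -0.11 rather than 0.79.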

How the results depend on the processing

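The late decline kept its direction and size of count under every alternative run: at 96 h between 66 and 69 genes were called when single libraries were left out, and at 120 h between 60 and 65. With library size alone 73 were lower at 96 h and 70 at 120 h, and with upper-quartile scaling 72 and 69. At 4 h the count of 2 became 1 with only the compared times in the fit, and 0 to 2 without single libraries. At 8 h the count of 4 became 7 with RLE scaling, 2 with library size alone, 8 with the replicate block, 20 with only the compared times and 12 with DESeq2, and 0 to 8 without single libraries. At 12 h the count of 2 became 1 with all 24 libraries in the fit, and 0 to 2 without single libraries. At 24 h the count of 9 became 4 with library size alone and 17 with only the compared times, and 1 to 10 without single libraries. From 36 to 48 h the count of 15 became 8 with library size alone and 1 to 4 without single libraries, where the lone library is assumed to vary like the other groups. From 48 to 72 h single libraries moved the count between 22 and 48, and from 96 to 120 h between 9 and 21.

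The comparison of R07 with withdrawal gave 2 calls without the 12 h libraries and 2 with DESeq2, and 0 to 4 without single libraries. R07 against 0 h gave 13 without the 12 h library and 1 with DESeq2, and 0 to 13 without single libraries. The slope of the R07 difference gave 57 calls without the 12 h libraries and 9 to 56 without single libraries, and its median turned to -0.11 without the 120 h R07 library. For R07 at 12 h, the count against 0 h was 4 without a filter and 2 to 3 without single 0 h libraries, and the count against withdrawal 2 with upper-quartile scaling. For R07 at 120 h against 0 h it was 22 to 37. With library size alone the median difference from withdrawal at 72 h of R07 turned to 0.0678, and at 120 h that of Mrpl45 to 0.0173 and that of Mrps18a to 0.16. At 120 h of withdrawal library size alone turned Mrpl45 to -0.23, Mrps18a to -0.16, Mrps21 to -0.0699 and Mrps18c to -0.25; Mrps18c also turned to -0.0037 with upper-quartile scaling, and ran from -0.051 (without 0 h library A) to 0.478 (without 0 h library B) over single libraries left out, and was -0.01 without 120 h library B. The causes were not tested.

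The main fits did not pair libraries by column letter. Differences of library A minus B correlated between times from -0.44 to 0.51 (median 0.07, above 0.1 in 16 of 45 pairs of times, 11024 genes). These correlations cannot tell whether the letters mark separate series. With the letter as a replicate block 11 genes were called at 24 h, 69 at 96 h and 66 at 120 h, and the block moved a count by over 1.5 times at 8 h only. For Mrpl53 the depth limits only the counts assigned to it, since most of its exon bases are shared with another gene.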
